A study of Homo sapiens with 12 samples.

Results

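SWI/SNF and NuRD are protein assemblies that use ATP to move or evict nucleosomes, and the messenger RNAs of their subunits were followed here in a pair of androgen-independent prostate cancer cell lines. The members were 41 genes taken by symbol from a list of known subunits, 27 of SWI/SNF and 14 of NuRD, out of 58037 identifiers in the count table. All 41 were found and 40 had enough counts to be tested in each comparison. The remaining one, ACTL6B, a neuron-specific actin-like subunit, had 0, 2 and 0 counts in vehicle DU-145 samples, 0, 2 and 1 with DOX, 6, 1 and 4 in vehicle LNCaP-AI samples and 4, 2 and 5 with DOX.

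The lines were DU-145, established from a metastatic prostate carcinoma, and LNCaP-AI, a derivative of C4-2B cells kept for months in phenol red-free medium with charcoal-stripped serum, which is poor in androgens. Both carried a doxycycline-inducible shRNA against MUC1, a membrane mucin whose transmembrane subunit acts as an oncoprotein, delivered by a viral vector and selected with puromycin. Per the study's methods, vehicle cells received DMSO and DOX cells received 500 ng/ml doxycycline for 7 days, and the labels call the same groups control and MUC1 shRNA. Each of the 4 groups had 3 samples from cultures grown in triplicate, so that p-values measure the spread between these cultures. The labels name the androgen-poor medium for both lines, whereas the study's methods name it for LNCaP-AI and give DU-145 a medium with serum not described as charcoal-stripped, so medium and line may not be separable in comparisons between the lines. A control shRNA treated with DOX was not analysed here, and an effect of doxycycline itself cannot be told apart from an effect of the shRNA.

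SWI/SNF is built around an interchangeable ATPase, SMARCA4 (BRG1) or SMARCA2 (BRM), on a scaffold of core subunits, and it is assembled in several forms that differ in their accessory subunits. Canonical BAF (cBAF) carries ARID1A or ARID1B and a DPF subunit, PBAF carries ARID2, PBRM1, PHF10 and BRD7, and non-canonical BAF (ncBAF) carries BICRA or BICRAL and BRD9. NuRD joins a CHD-family ATPase to the histone deacetylases HDAC1 and HDAC2, so that it combines nucleosome movement with removal of acetyl groups. Its other seats are filled by MTA scaffolds, the methyl-CpG-binding-domain proteins MBD2 or MBD3, the GATAD2 bridges and the histone chaperones RBBP4 and RBBP7. Most seats have a pair or trio of paralogs.

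Samples held 10423437 to 13544153 counts in DU-145 and 16569613 to 26961777 in LNCaP-AI. MUC1, the target of the shRNA, had 74, 60 and 59 counts in vehicle DU-145 samples and 3 in each DOX sample, and 36, 25 and 52 in vehicle LNCaP-AI samples against 8, 6 and 3 with DOX. The LNCaP-AI samples did not separate by treatment on the leading principal component (82.5% of the variance). One end, called side A here, had the first vehicle sample with DOX samples 2 and 3, and the opposite end, side B, had DOX sample 1 with vehicle samples 2 and 3. In DU-145 this component (71.1%) separated DOX from vehicle. Of 16 proliferation genes, 9 were lower and 1 higher with DOX in DU-145 (summed level 6005 to 6251 CPM with vehicle and 4561 to 4871 with DOX), and 9 were lower in LNCaP-AI (4680.0 to 4917 and 2101 to 3225 CPM). Over all genes, 25.3% were lower in DU-145 and 5.52% in LNCaP-AI. The part of the proliferation genes in the results below was not tested. Markers of luminal prostate cells were present in LNCaP-AI, with 7 of 7 detected, whereas 5 of 7, androgen receptor among them, were at 0 counts in all DU-145 samples. With DOX, 4 of the 7 were higher in LNCaP-AI (summed level 2425 to 3845 CPM with vehicle and 3880 to 5257 with DOX). In DU-145 the 1 luminal marker tested was also higher. The 4 general epithelial markers were higher with DOX in DU-145 (summed level 826 to 880.5 CPM with vehicle and 1903 to 2022 with DOX), and 0 of 4 were called in LNCaP-AI (1338 to 1421 and 1483 to 1689.8 CPM, and 1 of 4 had an unadjusted p under 0.05).

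Without DOX, the ATPase SMARCA4 was the member that differed most between the lines. Its levels were 21.4, 23.1 and 25.9 CPM (counts scaled to a common library size, over the vehicle samples of both lines here and within a line below) in the vehicle DU-145 samples and 309, 238 and 291 in the vehicle LNCaP-AI samples. The groups were far apart (fewer cells of a type and less RNA per cell cannot be told apart in such bulk samples), and the level was 11.9-fold higher in LNCaP-AI (log2 fold change 3.57 ± 0.14 SE, adjusted p = 4.32e-06). SMARCD3, a core subunit known from muscle and heart, came next, with 8.26, 7.20 and 10.4 CPM in DU-145 and 58.7, 41.9 and 45.9 in LNCaP-AI, or 5.65-fold more (log2 fold change 2.50 ± 0.19 SE, adjusted p = 4.23e-05). These were the 2 members past a log2 fold change of 2, a size reached with an adjusted p under 0.05 by 19.4% of all genes tested. The other ATPase, SMARCA2, was also higher in LNCaP-AI but by less, 1.47-fold (log2 fold change 0.56 ± 0.13 SE, adjusted p = 0.00779).

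In all, 20 of 40 members differed between the vehicle lines, 11 higher and 9 lower in LNCaP-AI. Across all genes 65.1% differed, 35.0% higher and 30.2% lower, so the share of members called was not above that of other genes. The deacetylase HDAC1 was higher in LNCaP-AI by 1.21 and the ATPase CHD3 by 0.83 on the log2 scale. SS18, the subunit that is fused in synovial sarcoma, was lower in LNCaP-AI by the largest margin, -1.41, followed by the ncBAF bromodomain subunit BRD9 (-0.96), the core subunit SMARCD1 (-0.90) and the scaffold MTA3 (-0.87). All 4 PBAF subunits lay between -0.47 and 0.20 and none was called by edgeR (adjusted p for BRD7 0.0729), and the count at an unadjusted p under 0.05 was also 0. Some calls of smaller size were lost when a sample was left out. Without any one of vehicle DU-145 samples 1, 2 or 3, 6 members were higher. Those lower were 5 without vehicle DU-145 sample 1 or 2 or vehicle LNCaP-AI sample 2. Calls over all genes also fell in these fits. Those higher fell from 5462 to 4589, 4778 and 4624, and those lower from 4718 to 3756, 3919 and 3832.

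**Figure D1:**
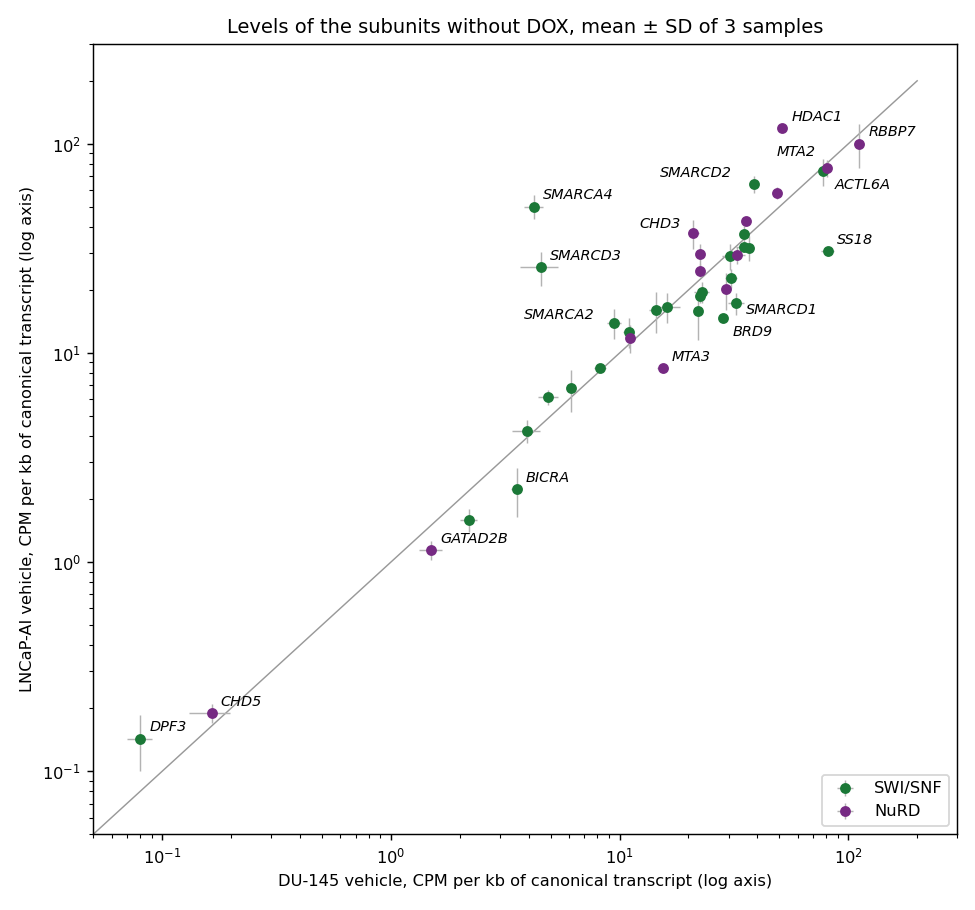
Mean level of each of the 40 tested subunits without DOX in DU-145 (x) and LNCaP-AI (y), in CPM per kb of the canonical transcript on log axes; bars are the SD of 3 samples and the line marks equal levels. SMARCA4 (4.21 ± 0.406 against 50.1 ± 6.62) and SMARCD3 (4.52 ± 0.857 against 25.6 ± 4.62) sit far above the line and SS18 (81.2 ± 4.93 against 30.6 ± 1.66) below it.

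Scaled by transcript length, the subunits covered a wide range within each line. In vehicle DU-145 the highest were RBBP7 at 112 ± 5.98 CPM per kb (mean ± SD, n = 3), SS18 at 81.2 ± 4.93, MTA2 at 81.0 ± 2.48 and ACTL6A, an actin-like subunit of the ATPase module, at 77.8 ± 4.0. The last 3 did not differ beyond their spread. In vehicle LNCaP-AI HDAC1 was highest at 119 ± 3.19, followed by RBBP7 at 100.3 ± 24.0, whose spread reached HDAC1, then MTA2 at 76.3 ± 6.90 and ACTL6A at 73.9 ± 11.1. Of the tested members DPF3 (0.0801 in DU-145 and 0.143 in LNCaP-AI) and the neural ATPase CHD5 (0.165 and 0.190) were lowest in both lines. The order depends on the transcript length used, 1 per gene, whereas a fold change does not.

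DOX changed the subunits of both complexes in DU-145, and in both directions. Of 40 members, 25 passed an adjusted p of 0.05 in edgeR, 10 higher and 15 lower, which is 62.5% against 51.5% of all genes (26.3% higher and 25.3% lower). The DOX and vehicle samples did not overlap for 29 members (72.5%, against 57.4% of all genes). Their median log2 fold change was -0.11, and that of all genes 0.00. SWI/SNF had 5 higher and 10 lower of 26 and NuRD 5 and 5 of 14. Most changes were small: 9 members were called and also moved by 0.5 or more on the log2 scale, a size that 25.3% of all genes reached.

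**Figure D2:**
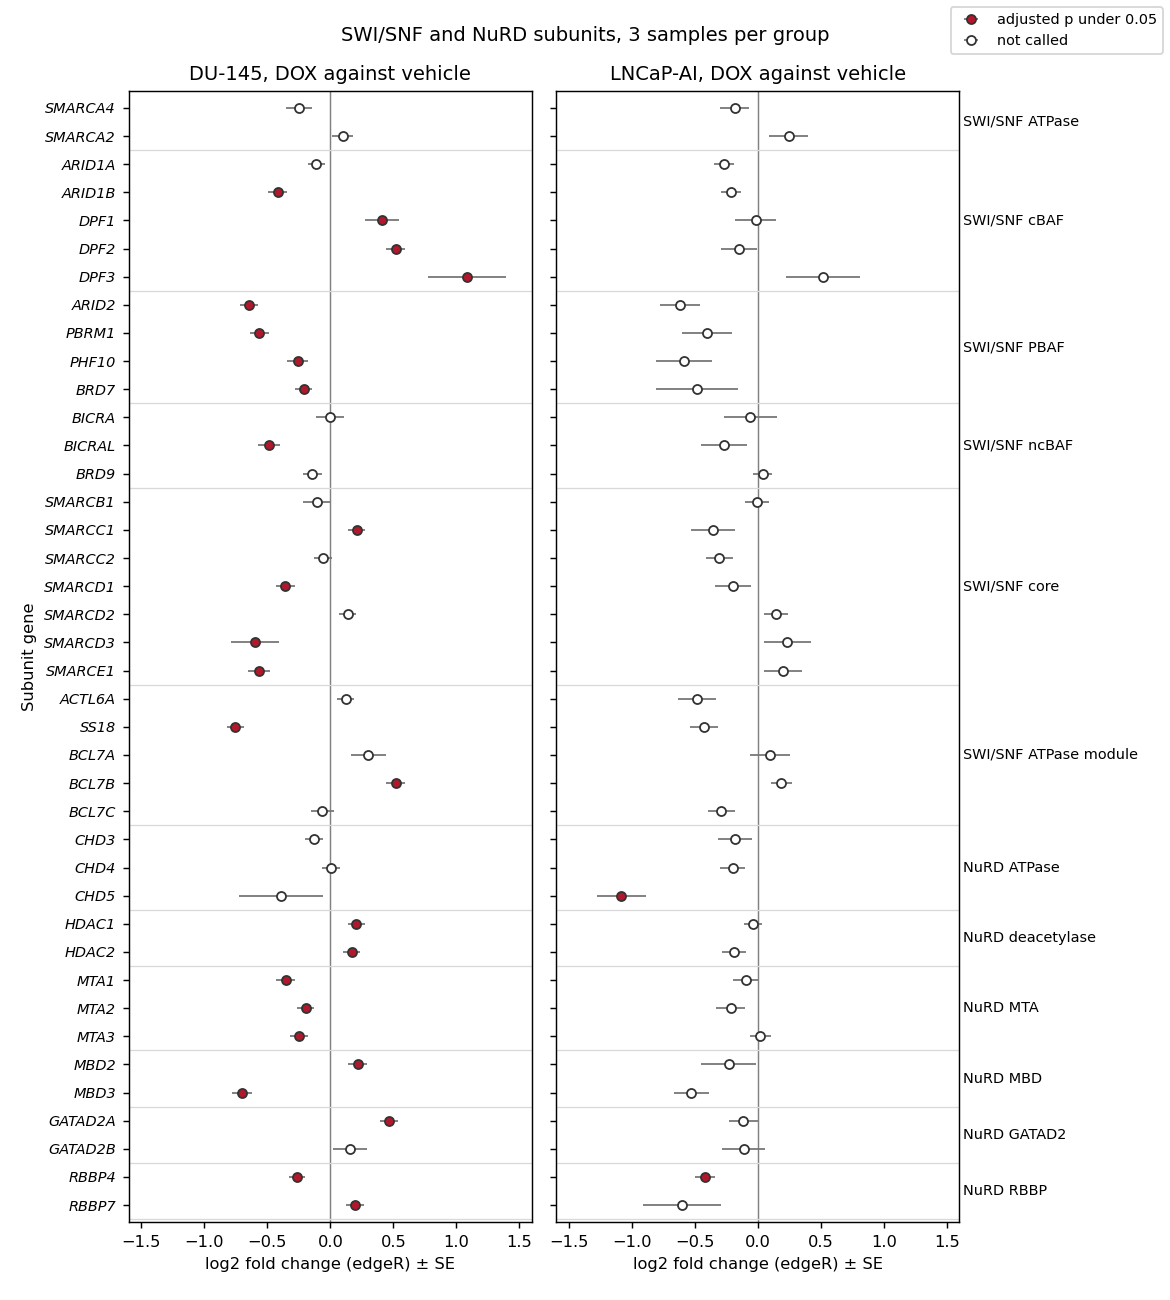
Log2 fold change of DOX against vehicle for 40 subunit genes, grouped by complex and module, in DU-145 (left) and LNCaP-AI (right); points are edgeR estimates, bars their SE, and red fill marks an adjusted p under 0.05. The 4 PBAF subunits and the 3 MTA scaffolds lie left of zero in DU-145 and the 3 DPF subunits right of it, and in LNCaP-AI the filled points are CHD5 and RBBP4.

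All 4 subunits found only in PBAF were lower with DOX in DU-145, as were 25.3% of all genes. ARID2, the DNA-binding subunit that defines PBAF, had 91.6, 85.8 and 82.1 CPM in the vehicle samples and 53.5, 54.8 and 57.8 in the DOX samples. The groups were well separated, with a log2 fold change of -0.64 ± 0.07 (SE, adjusted p = 5.46e-07). ARID2 lies at chr12:45729706-45908040 and PBRM1 at chr3:52545352-52685917 (GRCh38, plus and minus strand). PBRM1, which reads acetylated histones through an array of bromodomains, had 112, 97.3 and 107 CPM in the vehicle samples and 72.6, 74.5 and 67.0 in the DOX samples, again without overlap (-0.56 ± 0.07 SE, adjusted p = 3.63e-06). PHF10 and BRD7 fell by less and lost the call without DOX sample 3 (adjusted p = 0.0672 and 0.0585) and in a fit of all 12 samples (0.335 and 0.606), with log2 fold changes of -0.26 ± 0.08 (SE, adjusted p = 0.0103) and -0.21 ± 0.07 (SE, adjusted p = 0.0126).

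The cBAF subunits moved in opposite directions. All 3 DPF subunits, which read acetylated histone tails, were higher with DOX. DPF2, the form found in most tissues, had 83.9, 77.8 and 72.0 CPM in the vehicle samples and 118, 111 and 107 in the DOX samples, with no overlap (log2 fold change 0.52 ± 0.07 SE, adjusted p = 9.25e-06). DPF3 was scarce, with 10, 10 and 10 counts without DOX and 22, 23 and 20 with it, which correspond to 0.839 ± 0.101 and 1.79 ± 0.157 CPM (mean ± SD, n = 3). It rose by the largest factor of the members, 2.13-fold (log2 fold change 1.09 ± 0.31 SE, adjusted p = 0.00645), at a depth where few counts carry the estimate. DPF1 changed by 0.41 ± 0.13 (SE, adjusted p = 0.0149). Of the ARID subunits, ARID1B fell (-0.42 ± 0.07 SE, adjusted p = 1.08e-04) while ARID1A, a frequently mutated tumor suppressor, was at -0.11 with an adjusted p of 0.172.

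SS18 showed the largest loss among the members in DU-145. The gene lies at chr18:26016253-26091217, and its level was 261, 235 and 265 CPM in the vehicle samples and 153, 152 and 147 in the DOX samples. The DOX samples were tightly grouped well below the vehicle samples, a log2 fold change of -0.75 ± 0.07 (SE, adjusted p = 3.71e-08), or 1.68-fold lower. BCL7B, another subunit of the ATPase module, rose, with 56.1, 54.7 and 48.8 CPM in the vehicle samples and 75.5, 75.5 and 77.6 in the DOX samples (0.52 ± 0.07 SE, adjusted p = 9.24e-06), whereas its paralogs BCL7A (0.30) and BCL7C (-0.06) were not called. ACTL6A was not called either, with 127, 139 and 131 CPM in the vehicle samples and 146, 137 and 149 in the DOX samples (0.12 ± 0.07 SE, adjusted p = 0.151). Both ATPases also missed the threshold. SMARCA4 was at -0.25 ± 0.10 (SE, adjusted p = 0.0538) with lower values in all 3 DOX samples, and was called lower in 5 of 14 settings. SMARCA2 was at 0.10 ± 0.08 (SE, adjusted p = 0.351) and was called in 0.

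Within the core, SMARCE1, an HMG-box DNA-binding subunit, had 78.0, 65.3 and 86.3 CPM in the vehicle samples and 54.0, 51.3 and 50.1 in the DOX samples. The groups did not overlap (-0.57 ± 0.09 SE, adjusted p = 2.73e-05). SMARCE1 shares 3487 bp of exon on the same strand with a protein-coding gene model that has only an identifier, so some of its reads may have been assigned elsewhere. SMARCD3 had 7.58, 6.58 and 9.57 CPM in the vehicle samples and 3.76, 5.26 and 6.67 in the DOX samples. A DOX sample lay above the lowest vehicle sample, and the call (-0.60 ± 0.19 SE, adjusted p = 0.0132) was lost without vehicle sample 3 (log2 fold change -0.46, adjusted p = 0.0898) or without DOX sample 1 (-0.42, adjusted p = 0.0894). Its paralog SMARCD1 fell (-0.36) and the scaffold SMARCC1 rose (0.21), whereas SMARCB1, SMARCC2 and SMARCD2 were between -0.11 and 0.14 and were not called. Of the ncBAF subunits BICRAL was lower (-0.48 ± 0.09 SE, adjusted p = 1.06e-04), and BICRA (0.00) and BRD9 (-0.14) were not called.

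In NuRD, 10 of 14 members were called in DU-145 (71.4%, against 51.5% of all genes). They included at least 1 in every seat other than the ATPase, and several of these calls were lost in alternatives, as given below. MBD3, which unlike MBD2 does not bind methylated CpG with high affinity, had 56.0, 58.1 and 59.1 CPM in the vehicle samples and 32.8, 38.2 and 35.2 in the DOX samples. Every DOX sample lay below every vehicle sample, and the level fell 1.63-fold (log2 fold change -0.70 ± 0.08 SE, adjusted p = 5.10e-07). MBD2, its methyl-CpG-binding counterpart, moved the other way, from 135 ± 6.59 to 157 ± 11.6 CPM (0.22 ± 0.07 SE, adjusted p = 0.0170). MBD3 shares 767 bp of exon with an unnamed protein-coding model on its own strand. The bridge GATAD2A had 120.0, 118 and 116 CPM in the vehicle samples and 176, 158 and 154 in the DOX samples, with no overlap (0.46 ± 0.07 SE, adjusted p = 1.73e-05).

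The smaller NuRD changes in DU-145 were in the MTA, deacetylase and RBBP seats. MTA1, MTA2 and MTA3, scaffolds that recruit the deacetylases, were all lower, at -0.35, -0.20 and -0.25 on the log2 scale. The deacetylases HDAC1 (0.21) and HDAC2 (0.17) were both higher, HDAC2 with an adjusted p of 0.0480 that held in 4 of 14 settings (up to 0.197). HDAC1 had 101, 103 and 95.8 CPM in the vehicle samples and 118, 112 and 116 in the DOX samples. RBBP4 was lower (-0.26) and RBBP7 higher (0.19), with 222, 246 and 232 CPM in the vehicle samples and 284, 255 and 263 in the DOX samples for the latter. None of the ATPases was called by edgeR, also at an unadjusted p under 0.05. CHD4, the ATPase of most NuRD, had a log2 fold change of 0.00 with a 95% interval of -0.14 to 0.15. The interval was -0.28 to 0.01 for CHD3 and -1.09 to 0.31 for the scarce CHD5. CHD4 shares 5964 bp of exon with an unnamed protein-coding model on its own strand, so some of its reads may have been assigned elsewhere.

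The weaker DU-145 calls depended on single samples. The number of higher members fell from 10 to 6 without vehicle sample 1 and to 5 without vehicle sample 3. That of all genes fell from 3583 to 2986 and 3007 in these fits. HDAC1 then had adjusted p-values of 0.0504 and 0.0871, and RBBP7 lost its call without vehicle sample 1, vehicle sample 3, DOX sample 1 or DOX sample 3, with log2 fold changes of 0.14, 0.17, 0.15 and 0.21. DPF1, SMARCC1, MBD2 and MTA2 also lost the call in a fit of all 12 samples and without 1 or 2 of the single samples, namely vehicle 1 for DPF1 (adjusted p = 0.110), vehicle 3 (0.0818) or DOX 1 (0.0610) for SMARCC1, vehicle 3 (0.104) or DOX 1 (0.0940) for MBD2 and DOX 2 (0.0581) or DOX 3 (0.0830) for MTA2. The 15 called members that lost no call, ARID2, PBRM1, SS18, SMARCE1, BCL7B, DPF2, DPF3, MBD3, GATAD2A and RBBP4 among them, were called in each of the 13 alternatives run.

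**Figure D3:**
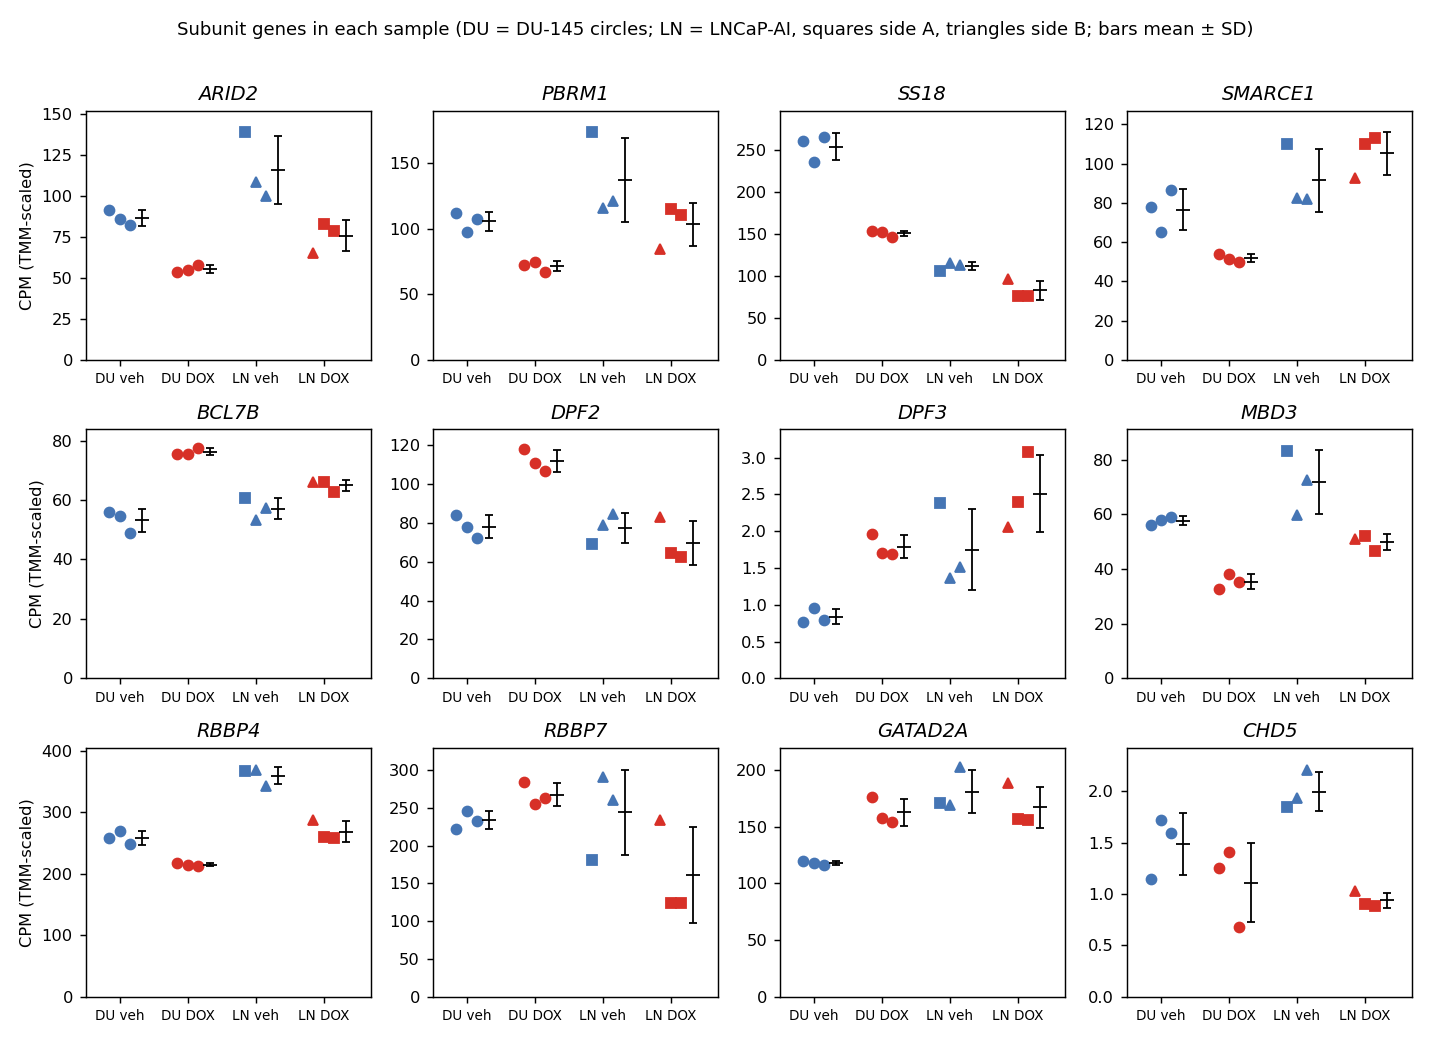
Level of 12 subunit genes in each sample, in CPM scaled within each line by TMM (y, from 0), for DU-145 vehicle (DU veh), DU-145 DOX, LNCaP-AI vehicle (LN veh) and LNCaP-AI DOX; blue is vehicle and red DOX, black bars are mean ± SD of 3 samples, and squares and triangles mark LNCaP-AI sides A and B. ARID2, SS18, MBD3 and RBBP4 are lower with DOX in both lines without overlap, while RBBP7 in LNCaP-AI lies higher on side B than on side A within each treatment.

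In LNCaP-AI, 2 of 40 members passed the test and both were lower, CHD5 and RBBP4 (5% of members against 12.7% of all genes, of which 5.52% lower and 7.22% higher). RBBP4, the histone chaperone that NuRD shares with several chromatin complexes, had 366, 368 and 343 CPM in the vehicle samples and 287, 259 and 258 in the DOX samples. The groups did not overlap, a log2 fold change of -0.42 ± 0.08 (SE, adjusted p = 0.0253). It was also lower in DU-145, with 257, 269 and 248 CPM in the vehicle samples and 218, 215 and 212 in the DOX samples (-0.26 ± 0.07 SE, adjusted p = 0.00238), and was the only member called in both lines by these fits. RBBP4 lies at chr1:32651142-32686211 on the plus strand (GRCh38), and 2160 bp of its exons overlap SYNC on the opposite strand.

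CHD5, an ATPase known mainly from neurons, was scarce in both lines. Its counts in LNCaP-AI were 38, 34 and 60 without DOX and 24, 15 and 15 with it. These are 1.84, 1.93 and 2.21 CPM against 1.03, 0.900 and 0.887, without overlap, and a fall of 2.12-fold (log2 fold change -1.08 ± 0.20 SE, adjusted p = 0.0239). In DU-145 it had 1.15, 1.72 and 1.60 CPM in the vehicle samples and 1.25, 1.41 and 0.676 in the DOX samples, which overlapped. Both LNCaP-AI calls were fragile: without vehicle sample 3, DOX sample 2 or DOX sample 3 neither was called (CHD5 adjusted p = 0.0549, 0.122 and 0.120; RBBP4 0.0537, 0.140 and 0.138), RBBP4 was not called without vehicle sample 2 either (0.0656), and without DOX sample 1 the number of lower members was 8. Calls over all genes were lost as well: 0 were lower without DOX sample 2 and 0 without DOX sample 3. The number was 490 without vehicle sample 2, 463 without vehicle sample 3 and 1605 of 14980 without DOX sample 1. The log2 fold changes stayed between -1.138 and -1.003 for CHD5 and between -0.47 and -0.37 for RBBP4 over the 15 settings run.

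The other LNCaP-AI subunits leaned lower without passing the test. The log2 fold change was below zero for 31 of 40 members, against 8796 of 16030 genes. The median was -0.19 against -0.05 for all genes, and the groups did not overlap for 12 (30% against 37.4% of all genes). No SWI/SNF subunit was called by edgeR, and 8 of 26 had an unadjusted p under 0.05, against 5003 of 16030 over all genes. DESeq2 called 9 members lower in the whole list, and 1620 of all 16030 genes. Members near the threshold were MBD3, with 83.1, 59.9 and 72.5 CPM in the vehicle samples and 51.1, 52.0 and 46.5 in the DOX samples (log2 fold change -0.53 ± 0.14 SE, adjusted p = 0.0553), ARID2, with 139, 108 and 99.8 CPM in the vehicle samples and 65.1, 83.1 and 78.6 in the DOX samples (-0.61 ± 0.16 SE, adjusted p = 0.0560), and SS18, with 106, 115 and 112 CPM in the vehicle samples and 95.7, 76.4 and 76.3 in the DOX samples (-0.43 ± 0.11 SE, adjusted p = 0.0601). In each of these 3 the DOX samples lay below the vehicle samples. PBRM1 was at -0.41 ± 0.20 (SE, adjusted p = 0.223), PHF10 at -0.59 ± 0.22 (SE, adjusted p = 0.135) and BRD7 at -0.48 ± 0.33 (SE, adjusted p = 0.373). ACTL6A had 129, 170.0 and 139.8 CPM in the vehicle samples and 123, 91.9 and 99.1 in the DOX samples, also without overlap (-0.48 ± 0.15 SE, adjusted p = 0.0937). Both ATPases of SWI/SNF and the NuRD ATPases CHD3 and CHD4 lay between -0.20 and 0.24, and the deacetylases and MTA scaffolds between -0.22 and 0.02. The subunit farthest above zero was DPF3, at 0.52 ± 0.29 (SE, adjusted p = 0.289).

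Several subunits had levels in LNCaP-AI that separated the sides. For 12 of 40 members (30%) the sides did not overlap, against 35.2% of all genes. The PBAF subunit BRD7 had a mean of 55.0 CPM on side A and 102 on side B, RBBP7 143 and 262, and PHF10 43.9 and 68.0. In all, 8 members were lower on side A (PHF10, BRD7, BICRA, SMARCC1, SMARCD1, DPF2, MBD2 and RBBP7) and 4 higher (SMARCA2, SMARCD3, SMARCE1 and DPF3). For RBBP7 this placed vehicle sample 1, at 181 CPM, below DOX sample 1, at 234, although DOX was below vehicle on each side. What the sides stand for is not given by the labels.

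Within the sides the PBAF subunits, like several other members, stood lower with DOX on both. The log2 difference of DOX from vehicle on sides A and B was -0.78 and -0.68 for ARID2, -0.62 and -0.48 for PBRM1, -0.63 and -0.27 for PHF10 and -0.34 and -0.14 for BRD7. RBBP4 gave -0.50 and -0.31, CHD5 -1.05 and -1.01 and MBD3 -0.75 and -0.37. How many members or genes lay below zero on both sides was not counted. SMARCC2 (-0.42 and -0.31), ACTL6A (-0.44 and -0.33), SS18 (-0.47 and -0.25) and RBBP7 (-0.55 and -0.23) also did. Others, such as BCL7B (0.09 and 0.25), lay above zero on both. Each side has 1 treatment represented by a single sample, so these differences carry no test of their own. With the side as a term in the edgeR fit, 16 of 40 members were lower and 0 higher, against 20.3% lower and 18.8% higher of all genes. They were 11 SWI/SNF and 5 NuRD subunits, including all 4 of PBAF, with ARID2 at -0.73 ± 0.08 (SE, adjusted p = 1.72e-07) and BRD7 at -0.24 ± 0.08 (SE, adjusted p = 0.0289). The sides were read from the same counts, so this fit describes these 6 samples and does not replace the one without the term. Of the 15 members lower in DU-145, 8 were among these 16 (53.3% and 50% of the lists): ARID2, PBRM1, PHF10, BRD7, BICRAL, SS18, MBD3 and RBBP4. Over all 12984 genes tested in both, the shared genes made 48.3% of the DU-145 list and 54.8% of the LNCaP-AI list, so the members' shares were near those of other genes.

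**Figure D4:**
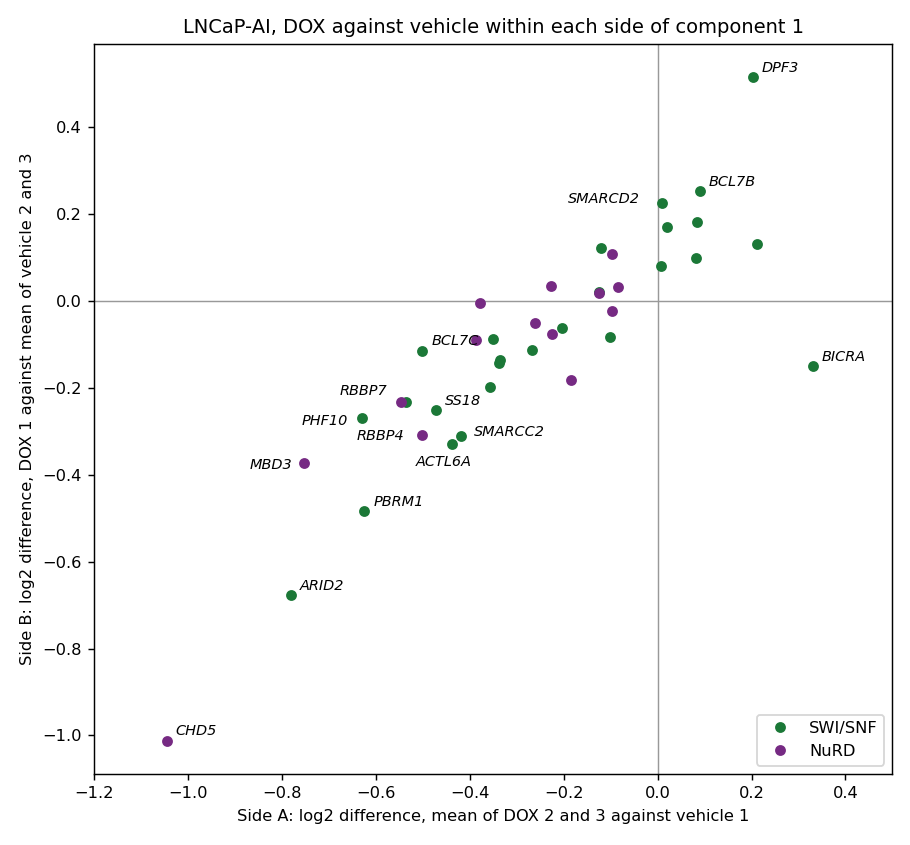
Log2 difference of DOX from vehicle within side A (x, mean of DOX 2 and 3 against vehicle 1) and side B (y, DOX 1 against the mean of vehicle 2 and 3) of the LNCaP-AI samples for 40 subunit genes, colored by complex. CHD5 and ARID2 lie farthest below zero on both axes.

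The DOX effect itself differed between the lines for 3 members by the interaction test (7.5% of members against 9.18% of all genes, 5.43% higher and 3.76% lower in LNCaP-AI relative to DU-145). SMARCE1 fell in DU-145 but had 110.1, 82.6 and 82.0 CPM in the vehicle samples and 92.6, 110.1 and 113 in the DOX samples in LNCaP-AI, where the groups overlapped, and the LNCaP-AI log2 fold change minus the one in DU-145 was 0.80 ± 0.19 (SE, adjusted p = 0.0254). DPF2 rose in DU-145 but had 69.0, 78.6 and 84.5 CPM in the vehicle samples and 82.7, 64.2 and 62.3 in the DOX samples in LNCaP-AI, again overlapping, a difference of -0.64 ± 0.17 (SE, adjusted p = 0.0452). GATAD2A likewise rose in DU-145 and had 171, 169 and 203 CPM in the vehicle samples and 188, 157 and 156 in the DOX samples in LNCaP-AI, also overlapping, a difference of -0.55 ± 0.14 (SE, adjusted p = 0.0394). All 3 kept their sign in every alternative run, but DPF2 and GATAD2A lost the call without any one of 10 samples, that is all but LNCaP-AI vehicle 1 and DOX 1 (adjusted p up to 0.115 and 0.108), and SMARCE1 without any one of these 10 other than DU-145 vehicle 2 (up to 0.0682). By direction alone, 20 members were below zero in both lines, 5 above in both, 4 below in DU-145 only and 11 below in LNCaP-AI only. Of all genes tested, 6814 of 13644 were below zero in DU-145 and 8796 of 16030 in LNCaP-AI. Joint directions were not counted over all genes. For RBBP4 the difference was -0.12, with a 95% interval of -0.33 to 0.08, and for ARID2 0.07 (-0.31 to 0.44). MUC1 itself, at low counts, fell by 4.39 in DU-145 and by 2.50 in LNCaP-AI. Its difference was 1.95 ± 0.41 (SE, adjusted p = 0.0241), and its part in the members' differences was not tested.

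Because most seats have paralogs, the ratio of paired paralogs within a sample was also taken, which does not depend on how the libraries are scaled. In DU-145 the largest difference was in the MBD pair: the log2 ratio of MBD3 to MBD2, in CPM per kb, was -1.48, -1.42 and -1.28 in the vehicle samples and -2.54, -2.17 and -2.23 in the DOX samples. The groups were well apart, and MBD2 exceeded MBD3 by a factor of 2.62 with vehicle and 4.97 with DOX. In LNCaP-AI the same ratio overlapped, at -0.20, -1.16 and -0.91 and -1.38, -0.81 and -0.91. The log2 ratio of RBBP4 to RBBP7 was -1.58, -1.66 and -1.70 in vehicle and -2.17, -2.04 and -2.10 in DOX samples of DU-145, whereas in LNCaP-AI it separated the sides. The DU-145 groups also did not overlap for ARID1A to ARID1B (difference 0.31), SMARCC1 to SMARCC2 (0.27), GATAD2A to GATAD2B (0.31) and CHD4 to CHD3 (0.13). In LNCaP-AI HDAC1 to HDAC2 did not overlap, at 2.31, 2.19 and 2.30 with vehicle and 2.36, 2.52 and 2.37 with DOX. Overlap was not counted for other gene pairs. Of single genes, 57.4% did not overlap in DU-145 and 37.4% in LNCaP-AI.

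The messenger RNAs of the SWI/SNF ATPases stood in a different proportion in the lines. SMARCA2 exceeded SMARCA4 in vehicle DU-145 by a factor of 2.25, with log2 ratios of SMARCA4 to SMARCA2 of -1.41, -1.11 and -0.99, and SMARCA4 exceeded SMARCA2 in vehicle LNCaP-AI by a factor of 3.61, with 1.76, 1.82 and 1.98. With DOX the ratio was lower in LNCaP-AI, at 1.63, 1.37 and 1.28, with no overlap, and at -1.78, -1.48 and -1.28 in DU-145, where the groups overlapped. These ratios are a description with no test, and their level between genes, though not the difference between groups, depends on the transcript lengths.

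**Figure D5:**
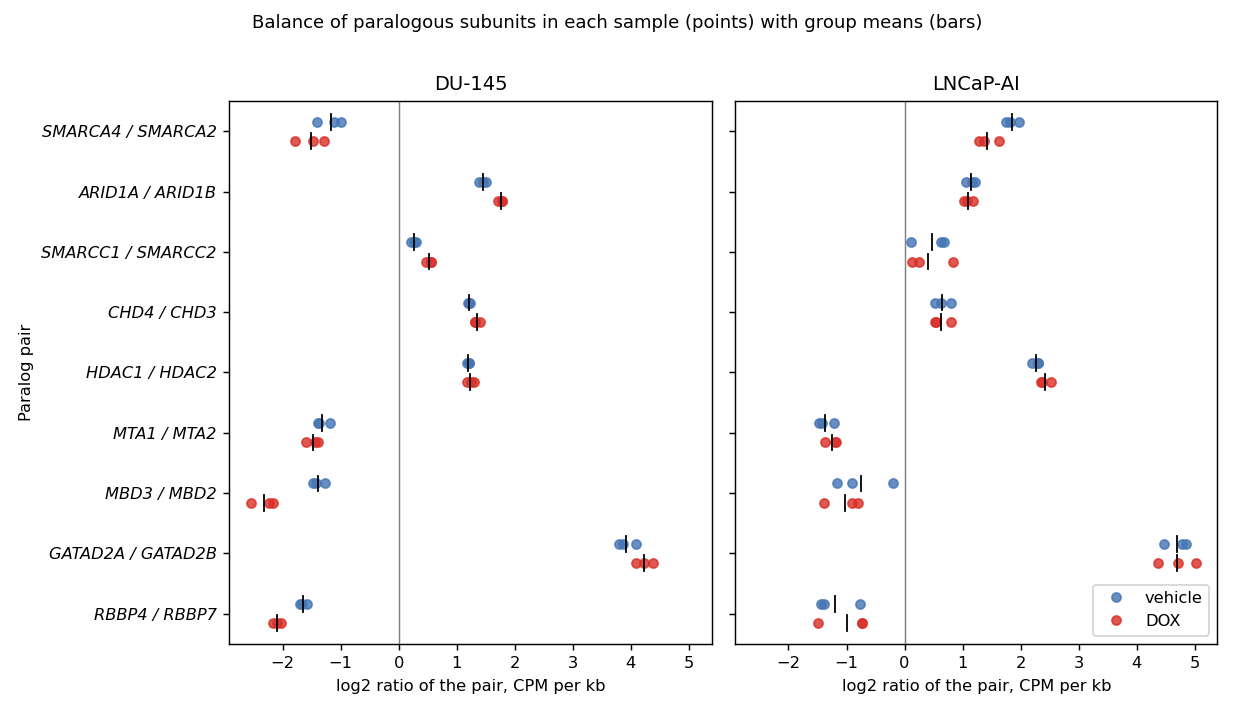
Log2 ratio of 9 paralog pairs in each sample (points) with group means (bars), from CPM per kb of the canonical transcript, in DU-145 (left) and LNCaP-AI (right), vehicle in blue and DOX in red. MBD3 / MBD2 and RBBP4 / RBBP7 lie farther left with DOX in DU-145, and SMARCA4 / SMARCA2 lies left of zero in DU-145 and right of it in LNCaP-AI.

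MYC, a factor that the study follows, is known to prefer the E-box letters CACGTG, which differ from the E-box elements the study mutated in a reporter, and E2F factors, which proliferating cells use, bind sites such as TTTGGCGC, TTTCGCGC and TTTCCCGC. These letters were looked up on both strands in the 250 bases before a RefSeq start of each gene. This choice was made after the members' values were known. RefSeq windows (GRCh38.p14) were found for 36 of the 41 members, and CHD5, SMARCC1, SMARCC2, ACTL6A and ARID2 had none. The RefSeq start nearest the annotated gene start was used, up to 40160 bases away (HDAC2). CACGTG stood in 3 of the 36 windows (8.33%), and in 6.34% of all 35116 windows. An E2F site stood in 1 (2.78%, against 2.32% of all windows). With only the first window of each symbol, the shares over all genes were 6.49% for CACGTG and 2.38% for E2F sites. The 4 windows are shown because they carry these letters, which are in capitals, 5′ to 3′ on the strand of the gene and cut where the annotated gene begins. RBBP4 was lower in both lines, PBRM1 and BRD7 are PBAF subunits lower in DU-145, and BCL7B was higher in DU-145, so the E-box letters stood before genes that moved in either direction. A match of letters is a description and not a binding site.
RBBP4 (chr1:32650958-32651141, plus strand): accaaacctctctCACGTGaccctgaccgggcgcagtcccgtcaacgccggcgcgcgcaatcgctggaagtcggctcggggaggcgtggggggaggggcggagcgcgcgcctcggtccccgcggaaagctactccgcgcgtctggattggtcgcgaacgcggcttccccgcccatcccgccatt
PBRM1 (chr3:52685918-52686163, minus strand): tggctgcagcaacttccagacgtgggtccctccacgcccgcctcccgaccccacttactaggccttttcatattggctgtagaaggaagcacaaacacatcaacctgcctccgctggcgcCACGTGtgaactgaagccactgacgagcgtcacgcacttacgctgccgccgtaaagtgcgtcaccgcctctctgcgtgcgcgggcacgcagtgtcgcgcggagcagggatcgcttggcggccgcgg
BCL7B (chr7:73557691-73557940, minus strand): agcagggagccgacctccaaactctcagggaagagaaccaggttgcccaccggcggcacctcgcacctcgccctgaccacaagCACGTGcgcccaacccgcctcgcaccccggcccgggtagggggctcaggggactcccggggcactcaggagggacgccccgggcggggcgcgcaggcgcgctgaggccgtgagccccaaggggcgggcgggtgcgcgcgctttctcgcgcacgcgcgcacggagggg
BRD7 (chr16:50368989-50369238, minus strand): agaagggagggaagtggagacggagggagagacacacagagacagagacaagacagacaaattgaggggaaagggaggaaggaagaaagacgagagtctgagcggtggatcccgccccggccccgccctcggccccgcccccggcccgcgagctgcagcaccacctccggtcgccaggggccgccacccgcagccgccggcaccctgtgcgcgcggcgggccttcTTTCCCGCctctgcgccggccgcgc

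Related remodelers outside the complexes were read against the same background, 51.5% of all genes called in DU-145 and 12.7% in LNCaP-AI. Of 11 ISWI-family genes, 3 were higher and 4 lower with DOX in DU-145 and 1 higher and 3 lower in LNCaP-AI, shares of 63.6% and 36.4%. BAZ2A, the large subunit of the nucleolar remodeler NoRC, rose in both, by 0.56 and 0.46 on the log2 scale, and CHRAC1, a histone-fold subunit of the CHRAC remodeler, fell by 0.58 and 0.82. Of 17 INO80 and SRCAP genes tested, 6 were higher and 1 lower in DU-145 and 1 higher in LNCaP-AI, shares of 41.2% and 5.88%, both under the background. ZNHIT1, a SRCAP subunit used in H2A.Z deposition, rose by 0.83 and 0.69. Of 9 CHD and SNF2-type remodelers outside NuRD, 3 were higher and 4 lower in DU-145 and 1 lower in LNCaP-AI, shares of 77.8% and 11.1%, where HELLS, a remodeler needed for DNA methylation, fell by 1.06 and in DU-145 fell by 0.76. Among NuRD partners 1 of 9 was higher and 2 lower in DU-145, a share of 33.3%, with SALL2 at -0.98, and 1 of 11 higher in LNCaP-AI, SALL4, a stem-cell zinc finger that recruits NuRD, at 1.48 (adjusted p = 0.0226). None of the SWI/SNF partners was called by edgeR, of 2 tested in DU-145 and 4 in LNCaP-AI, and the counts at an unadjusted p under 0.05 were 0 and 2.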

How the data were processed

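RNA was sequenced from DU-145 and LNCaP-AI tet-MUC1shRNA cells as stranded, poly(A)-selected libraries. Per the labels, the deposited values are raw read counts per gene, 1 column for each of 12 samples; the submitters' processing notes name CASAVA 1.8.2, STAR 2.7.0, DESeq2 1.24.0 and GRCh38.p7, and the counting tool and its strand setting are not given in the sources used here. Reads of overlapping genes may therefore be split or shared. Members were matched by symbol. Genes with at least 10 counts in 3 samples of a comparison were tested with edgeR 4.0.16 (TMM scaling, quasi-likelihood F test, two-sided, R 4.3.3), with the Benjamini-Hochberg adjustment over all genes tested and a threshold of 0.05; the scripts were tested on simulated counts. Each line was fitted alone, the vehicle groups together, and all 12 samples for the difference in DOX effect. CPM in the text is TMM-scaled, and CPM per kb uses 1 canonical transcript per gene (GENCODE 44). Values in every sample are given for members called and changed by 0.5 or more (log2) in a line, or by 2 or more between the vehicle lines, members called in LNCaP-AI or by the interaction test, and the member of each complex with the highest level per kb in a line; of each related list at most 2 genes per direction are named. The members and lists were chosen with earlier results of these data known. Alternatives were DESeq2 1.42.0, other scalings and filters, a replicate block, a fit of all 12 samples, a side term and leaving out each sample. Replicates of a group differed by more than sampling noise.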

Additional observations from a re-analysis of the deposited data

Results flagged for a closer look

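By the interaction term of the edgeR fit over all 12 samples, the effect of DOX differed between the lines for 3 subunits. This is 7.5% of members, against 9.18% of all genes. All 3 calls were lost with a replicate block and when any one of most samples was left out. Values are the log2 fold change in LNCaP-AI minus that in DU-145. The core subunit SMARCE1 was at 0.80 (adjusted p = 0.0254), with all 3 DOX samples below the vehicle samples in DU-145 and overlapping groups in LNCaP-AI. The cBAF subunit DPF2 was at -0.64 (adjusted p = 0.0452) and the NuRD bridge GATAD2A at -0.55 (adjusted p = 0.0394), both with all 3 DOX samples above the vehicle samples in DU-145 and overlapping groups in LNCaP-AI. DPF2 and SMARCE1 are among the members whose levels separated the sides of the LNCaP-AI samples, and what the sides had to do with these differences was not tested. MUC1 itself fell less in LNCaP-AI, a difference of 1.95 (adjusted p = 0.0241), and its part was not tested either.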

How the results depend on the processing

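In DU-145 the count of members lower (15) stayed between 11 and 16 in the 13 alternatives, and the count higher (10) was 5 in the fit of all 12 samples and 5 to 10 when a sample was left out. In LNCaP-AI, where 2 were lower, the count was 9 with DESeq2, 4 with the size factors of DESeq2, 9 in the fit of all 12 samples, 16 with the side term and 0 to 8 when a sample was left out, and 0 were higher in any of these. For the difference between lines (1 higher and 2 lower), DESeq2 gave 4 and 4, upper-quartile scaling 3 higher, no filter 0 lower, and leaving out a sample 0 to 3 higher and 0 to 8 lower. Between vehicle lines (11 higher and 9 lower), no filter gave 4 lower and leaving out a sample 6 to 12 higher and 5 to 9 lower. The replicate numbers did not pair the samples: same-numbered deviations correlated at 0.13, -0.09 and 0.08 in DU-145 and at -0.94, -0.81 and -0.84 in LNCaP-AI. With a replicate block 9 members were higher and 16 lower in DU-145, 0 were lower in LNCaP-AI, 0 differed in either direction between lines in DOX effect, and 7 were higher and 7 lower between vehicle lines. Of all genes, 2035 were higher and 2048 lower in DU-145 in the fit of all 12 samples, against 3583 and 3450. In LNCaP-AI, against 1158 and 885, they were 1897 and 1620 with DESeq2, 2256 and 1677 in the fit of all 12 samples, 3013 and 3258 with the side term, and 0 and 0 with the block. For the difference between lines, against 912 and 631, they were 1282 and 999 with DESeq2, 500 and 384 with no filter, and 30 and 22 with the block. When a sample was left out, they were 2986 to 3615 and 2932 to 3500 in DU-145. In LNCaP-AI they were then 1 to 1933 and 0 to 1605, lowest without DOX sample 2 or 3. For the difference between lines they were 454 to 1567 and 283 to 2045. Between vehicle lines, against 5462 and 4718, they were 3923 to 4963 and 3756 to 4975. Among members shown sample by sample, the sign turned for HDAC1 in LNCaP-AI (0.015 with upper-quartile scaling) and for ARID2 in the difference between lines (-0.027 without LNCaP-AI vehicle sample 3 and -0.0023 without LNCaP-AI DOX sample 2, 0.202 at most, without vehicle sample 1). Over all members it turned in some alternative for 2 in DU-145 (BICRA and CHD4), 6 in LNCaP-AI (BICRA, BRD9, DPF1, HDAC1, MTA3 and SMARCB1), 6 in the difference between lines and 9 between vehicle lines, 0 of them called. Leaving out a sample also turned the difference in 4 LNCaP-AI paralog ratios (MBD3 to MBD2, CHD4 to CHD3, SMARCC1 to SMARCC2 and GATAD2A to GATAD2B). Of the other values for members shown sample by sample, 611 kept sign and call, 33 gained a call and 54 lost one, and the cause of the changes was not tested. Low counts limit DPF3 in DU-145 and CHD5 in both lines.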
